A study of Mus musculus with 2 samples.

Results

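The aryl hydrocarbon receptor (AhR) pathway was described here by 7 genes: the receptor gene Ahr, its dimer partner Arnt, and the named targets Ahrr, Tiparp, Cyp1a1, Cyp1a2 and Cyp1b1. They were taken by gene name from the 37146 genes of the deposited tables, by a rule that uses no measured value. The choice of these genes was nonetheless made with earlier results of these data known. The Control library came from the liver of CD-1 mice, an outbred strain, that received phosphate-buffered saline. The NP library came from CD-1 mice that took a titanium dioxide nanoparticle suspension by mouth, at 50 mg per kg body weight per day. Each group is a single RNA-seq library, so no difference below has a replicate check, no test was possible, and every statement compares these 2 libraries and not the treatment. The sources used here do not give the number, sex and age of the mice behind a library, the length of dosing or the delay between the last dose and sampling.

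AhR is a transcription factor of the bHLH-PAS family that is switched on by ligands such as dioxins, polycyclic aromatic hydrocarbons and tryptophan metabolites. Without ligand it is held in the cytosol by a chaperone complex; with ligand it enters the nucleus, pairs with ARNT and binds the xenobiotic response element (XRE), whose core reads GCGTG. The CYP1 cytochrome P450 genes are its classical targets, and Ahrr and Tiparp encode feedback repressors that it also induces. In liver Cyp1a2 is known to be expressed constitutively in pericentral hepatocytes, while Cyp1a1 is known to stay near zero until an agonist is given.

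The promoters of 4 targets are shown first, because these genes lie at opposite ends of the range of levels reported below: Cyp1a2 was by far the highest of the 7 and Ahrr the lowest, with Cyp1a1 and Tiparp between. Each sequence is the 250 bases before the gene's start in RefSeq, build GRCm38.p6, read on the gene's own strand. Capitals mark the XRE core, as GCGTG or as its complement CACGC on the other strand. The windows are chr9:57697363-57697612 (plus strand) for Cyp1a1, chr9:57683656-57683905 (minus) for Cyp1a2, chr13:74292332-74292581 (minus) for Ahrr and chr3:65528197-65528446 (plus) for Tiparp.
Cyp1a1: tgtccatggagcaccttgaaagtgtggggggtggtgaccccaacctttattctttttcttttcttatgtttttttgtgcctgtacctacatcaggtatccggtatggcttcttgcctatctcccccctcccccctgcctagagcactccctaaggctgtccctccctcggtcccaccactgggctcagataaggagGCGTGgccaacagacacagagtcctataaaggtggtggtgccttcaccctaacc
Cyp1a2: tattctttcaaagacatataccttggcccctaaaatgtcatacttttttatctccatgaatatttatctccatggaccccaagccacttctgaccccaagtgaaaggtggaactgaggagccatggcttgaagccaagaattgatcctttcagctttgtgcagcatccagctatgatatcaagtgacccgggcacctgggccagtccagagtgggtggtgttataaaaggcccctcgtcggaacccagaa
Ahrr: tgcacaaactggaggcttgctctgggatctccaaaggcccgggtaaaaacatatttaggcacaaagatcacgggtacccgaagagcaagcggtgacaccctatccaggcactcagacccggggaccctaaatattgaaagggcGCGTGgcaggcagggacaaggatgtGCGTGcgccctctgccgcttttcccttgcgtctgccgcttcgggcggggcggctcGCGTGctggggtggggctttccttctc
Tiparp: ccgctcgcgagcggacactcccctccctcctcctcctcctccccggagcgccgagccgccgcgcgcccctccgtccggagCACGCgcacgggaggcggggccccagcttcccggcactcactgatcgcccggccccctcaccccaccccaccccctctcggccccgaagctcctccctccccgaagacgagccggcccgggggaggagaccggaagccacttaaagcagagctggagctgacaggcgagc

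Ahrr had 3 cores in its window, beginning 107, 82 and 27 bases before the start. Cyp1a1 had 1, at 54 bases, and Tiparp had 1, at 170 bases. Cyp1a2 had 0. Of the windows not printed, Arnt and Cyp1b1 had 1 core each, at 29 and 76 bases. For comparison, 28.2% of the 32851 RefSeq promoter windows of the same length held at least 1 core and 2.77% held 3 or more. The GC content was 47.2% in the Cyp1a2 window and from 53.6% (Cyp1a1) to 75.2% (Tiparp) in the others. The median of all windows was 52.4%, and the part of GC content in these matches was not tested. The longer form TNGCGTG, which contains the core, was present once in the Ahrr window, in none of the other 5, and in 4.10% of all windows. ACGTG, the core bound by the hypoxia-inducible partners of ARNT, was in 0 of the 6 windows and in 16.6% of all. The well-studied enhancer of Cyp1a1 lies farther upstream, outside this window. A match is a run of letters and not evidence of binding, and Ahr had no entry in the promoter table.

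Levels were read as FPKM, fragments scaled to row length and library size, which can be compared between genes of different length. All rows of a gene were summed, and the ranges in brackets are the 95% intervals that Cufflinks gives within a library. Those intervals hold no spread between animals. The median coverage behind 1 FPKM, a guide to depth, was 2.29 for the Control tables and 2.92 for NP, which is 1.28 times as much. The summed level of 5 hepatocyte markers was 36640 FPKM in Control and 48157 in NP, led by Alb, albumin, at 21660 and 30741. Differences are given on the scale of log2(FPKM + 1), which shrinks those of low genes, with plain FPKM ratios beside them. A gene was counted as different when it passed 1.5-fold on that scale, a log2 difference of 0.58. Among the 10533 genes whose average over both libraries reached 1 FPKM, 3.60% were 1.5-fold higher and 5.33% were 1.5-fold lower in NP, with a median difference of -0.03. The log2 ratio was below 0 for 5725 of them and above 0 for 4808. Separate intervals, with NP on the upper side, were found for 7.73% of them, and with NP on the lower side for 9.58%.

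Across the pathway, 0 of the 4 genes past the mean filter were 1.5-fold higher in NP and 0 were 1.5-fold lower, against those background shares of 3.60% and 5.33%. Ahr, Arnt, Tiparp and Cyp1a2 passed the filter; Cyp1a1, Cyp1b1 and Ahrr had means under 1 FPKM and are described by their values alone. The NP interval was wholly below for 2 of the 4, Arnt and Cyp1a2, and wholly above for 0. Among all genes past the filter these shares were 9.58% and 7.73%. At high levels, such as that of Cyp1a2, the intervals are tight, and even a slight difference leaves them apart. Arnt was at a middle level, with 53.8% of the genes past the filter below it in Control and 42.7% in NP. In the order of levels, Cyp1a2 came first in both libraries, then Arnt, Ahr, Tiparp, Cyp1a1, Cyp1b1 and Ahrr. Arnt and Ahr, neighbours in that order, had separate intervals in Control and overlapping ones in NP. Cyp1a1 and Cyp1b1 overlapped in both libraries.

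**Figure D1:**
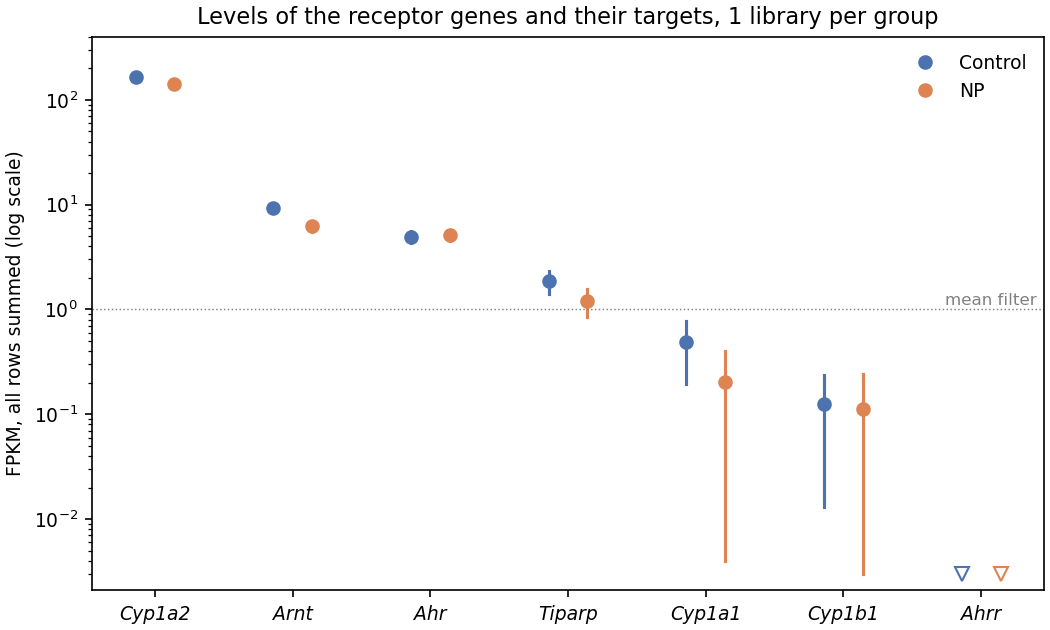
FPKM of the 7 genes in the Control library (blue) and the NP library (orange), on a log axis; lines are the 95% intervals within a library, ends at 0 are drawn at the axis floor, and open triangles mark values at or under 0.003 FPKM. Cyp1a2 lies above 100 FPKM in both libraries, and Cyp1a1, Cyp1b1 and Ahrr lie under the mean filter of 1 FPKM (dotted line).

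Ahr, the ligand-binding receptor, was at nearly the same level in both libraries. Its summed FPKM was 4.94 in Control (interval 4.29 to 5.60) and 5.13 in NP (4.503 to 5.77), a difference of 0.05 in log2 and a ratio of 1.04. The ranges overlap almost entirely. The gene lies on chromosome 12 from 36182646 to 36219710 in the mm9 coordinates of the files. A single coding transcript of 5548 nt, ENSMUST00000116436.2, carried all transcript-level FPKM, with 4.82 in Control and 5.13 in NP, while 3 shorter transcripts were listed at 0 in both. The remaining 0.121 FPKM of Control sat in a row that spans the whole gene with its introns, which was at 0 in NP. Weighted by row length, as a measure of fragments, that row held 14.4% of the gene's signal in Control, and the weighted total was 0.912 times as high in NP. The direction for Ahr thus differed between FPKM and length-weighted FPKM.

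Arnt, which encodes the partner that AhR needs to bind DNA, was lower in the NP library. Control had 9.36 FPKM (8.27 to 10.4) against 6.25 (5.47 to 7.03) for NP, a plain ratio of 0.668 and -0.52 in log2. The intervals do not overlap, yet the difference did not reach the 1.5-fold rule on the log2 scale. Among all genes past the filter, 6.62% had a ratio below that of Arnt. The ratio of Arnt to Ahr was 1.89 in Control and 1.22 in NP. As these are whole-liver libraries, fewer cells of a type and less RNA per cell cannot be told apart for this or any other gene.

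In the Cufflinks estimates, the Arnt difference was spread over rows that did not all go the same way. The gene, on chromosome 3 from 95238310 to 95301162, has 11 transcript rows, of which 2 were above 0. The coding transcript ENSMUST00000090804.5 had 7.77 FPKM in Control (6.79 to 8.74) and 6.05 in NP (5.27 to 6.83), so that its own intervals just overlapped. ENSMUST00000149051.1, a retained-intron transcript by the GENCODE M21 annotation, had 1.45 FPKM in Control (0.967 to 1.94) and was listed at 0 in NP, with an upper limit of 0.0471. This row made up 15.5% of the Arnt level in Control. The gene-span row went the other way, with 0.142 FPKM in Control and 0.201 in NP, and its share of the length-weighted signal was 18.4% in Control and 32.6% in NP. Both the retained-intron row and the span row can take intronic reads, and with all rows weighted by length Arnt in NP was at 0.802 of its Control value. Cufflinks estimates the split among overlapping rows. The summed FPKM depends on that split too, because the rows differ in length.

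**Figure D2:**
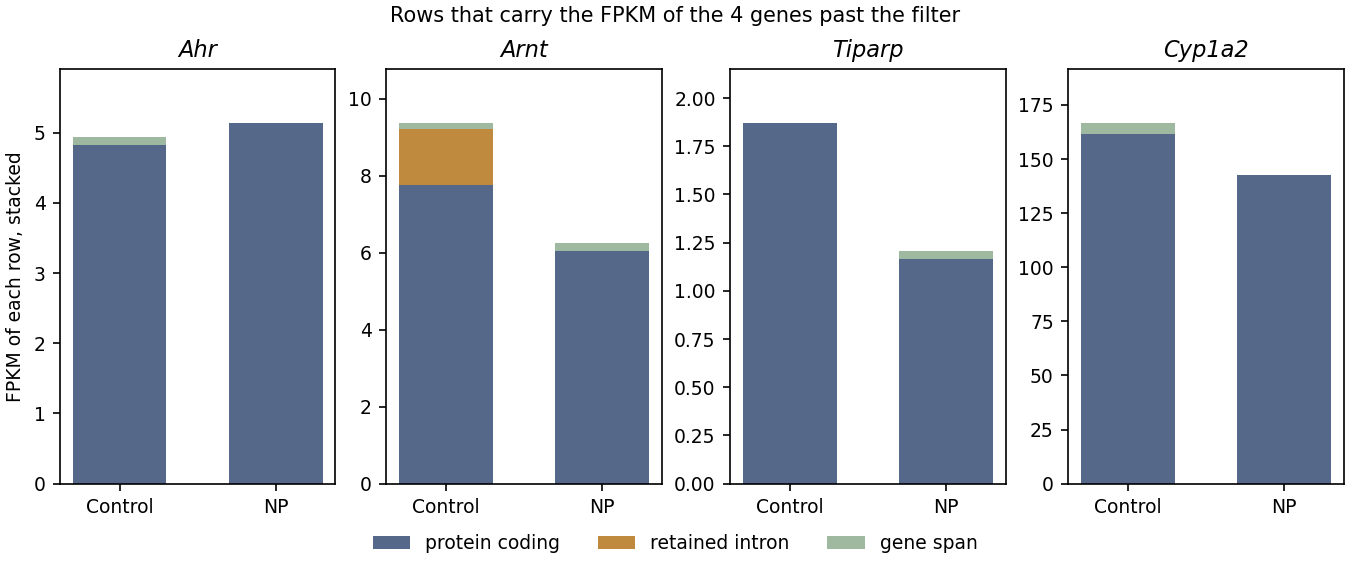
FPKM of each row, stacked, for the 4 genes past the mean filter in Control and NP; colours separate protein-coding transcripts, the retained-intron transcript of Arnt and rows that span a whole gene. The retained-intron segment of 1.45 FPKM appears only in the Control bar of Arnt, and the other bars consist almost wholly of coding transcript.

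Of the feedback repressors, Tiparp was low and Ahrr was near or at 0. Tiparp encodes a mono-ADP-ribosyltransferase that modifies AhR and is one of its direct targets. It was at 1.87 FPKM in Control (1.40 to 2.34) and at 1.21 in NP (0.850 to 1.56), a difference of -0.38 in log2 and 1.55-fold lower in plain FPKM. The intervals overlap, and the gene passed the size rule only with a pseudocount of 0.1 FPKM or none. Only 10.6% of the genes past the filter had a lower level in Control, and 5.10% in NP. Its coding transcript ENSMUST00000047906.3 held all of the FPKM in Control and 96.5% of it in NP, with the rest in the span row. Weighted by row length, the span row held 20.1% of the signal in NP, and Tiparp in NP was at 0.780 of its Control value. The width of the coding transcript's interval corresponds to about 62.2 fragments in Control and 42.8 in NP, if only counting error enters. Tiparp lies on chromosome 3 from 65332332 to 65359067, and the gene it overlaps, 4931440P22Rik, was listed at 0 in both libraries.

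Ahrr encodes the AhR repressor, which competes with AhR for ARNT. All 6 of its transcript rows were listed at 0 in both libraries. The span row, covering chromosome 13 from 74348566 to 74429779, had 0 in the Control table and 0.00144 FPKM (0 to 0.00460) in that of NP, so no fold is given. In Control the upper limits of all 7 rows were also 0, a state shared by 21663 of the 89846 rows at 0 in that library. In NP the upper limits of the transcript rows ran from 0.0355 to 0.568 FPKM. A listed 0 is not proof of absence: Ptges3, the AhR co-chaperone p23, which is known to be expressed widely, was listed at 0 in all 5 of its rows in both libraries, with upper limits of up to 0.796 FPKM in Control. Baz2a, a gene that overlaps it, was listed at 0 as well.

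Cyp1a2, the constitutive hepatic CYP1 enzyme that oxidises caffeine and aromatic amines, dominated the pathway. It was at 166.5 FPKM in Control (157 to 176) and at 143 in NP (135 to 151), 1.17-fold lower in plain FPKM and -0.22 in log2. The NP interval lies wholly below that of Control, but 21.8% of the genes past the filter had a ratio lower than this. By level Cyp1a2 ranked 465 of 10533 genes in Control and 538 in NP. Its only transcript row, ENSMUST00000034860.3, had 162 FPKM (153 to 171) in Control and 143 in NP, and these intervals were separate too. The span row was at 4.76 FPKM (4.13 to 5.38) in Control and listed at 0 in NP, and it held 9.46% of the length-weighted signal in Control. Weighted in this way, Cyp1a2 in NP was at 0.798 of its Control value.

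Cyp1a1, the most inducible of the CYP1 genes and the usual marker of AhR activation, was near the floor in both libraries. It had 0.484 FPKM in Control (0.193 to 0.776) and 0.205 in NP (0.00400 to 0.406), all in 1 coding transcript of 2619 nt. The intervals overlap. The plain ratio was 0.423, or -0.30 on the log2 scale. These intervals correspond to about 11.0 fragments in Control and 4.16 in NP if only counting error enters, so the depth cannot resolve a difference of this size. Cyp1a1 and Cyp1a2 sit on chromosome 9 on opposite strands with their starts facing each other, at 57545420 to 57551629 and 57524744 to 57531462, with 13957 bases between them. Cyp1a2 exceeded Cyp1a1 344-fold in Control and 696-fold in NP and made up 99.6% and 99.8% of the summed CYP1 FPKM. The enzymes are close relatives, and the sources used here do not say how reads that fit both genes were assigned.

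Cyp1b1, the CYP1 gene that is known mainly outside hepatocytes, was the lowest of the CYP1 genes. Its level was 0.125 FPKM in Control (0.0130 to 0.237) and 0.113 in NP (0 to 0.243), and the ranges overlap almost fully. The row that carried it differed: ENSMUST00000024894.1, of 5128 nt, in Control and ENSMUST00000164905.1, of 3398 nt, in NP. Each was listed at 0 in the other library. The intervals correspond to about 4.98 and 2.99 fragments, a depth at which the choice between such rows has little support. Cyp1b1 lies on chromosome 17 from 80106234 to 80114401.

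**Figure D3:**
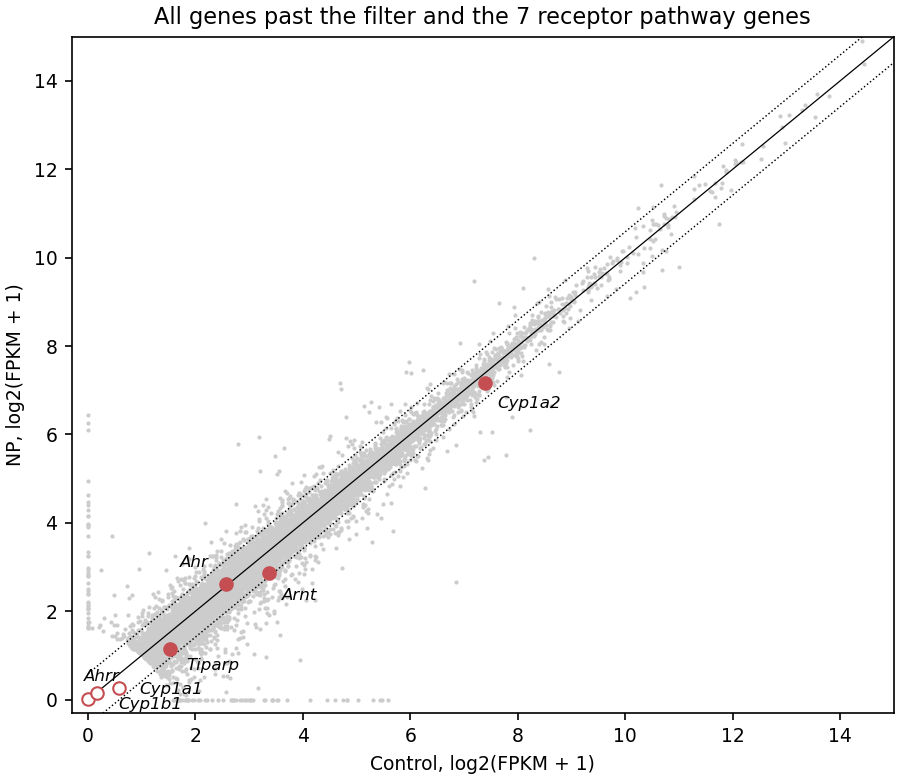
Levels of the 10533 genes past the mean filter (grey) and of the 7 pathway genes (red; open circles did not pass the filter) as log2(FPKM + 1) in Control (horizontal) and NP (vertical); the solid line marks equality and dotted lines 1.5-fold. All 7 genes lie between the dotted lines, with Arnt at -0.52 nearest to the lower one.

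Other genes that AhR agonists are known to raise in mouse liver or mouse cells were taken from a list of 16, of which 11 passed the filter. Of those 11, 1 was 1.5-fold higher and 0 lower, beside 3.60% and 5.33% of all genes. The NP interval was wholly above for 2 and wholly below for 1, beside 7.73% and 9.58% of all genes. The list median was 0.17, beside -0.03 for all genes, and it was 0.06 among members with a mean of at least 5 FPKM. Cd36, a fatty acid transporter that answers to several nuclear receptors, was the gene past 1.5-fold, with 2.66 FPKM for Control (1.93 to 3.39) against 5.09 for NP (4.14 to 6.04). The count was 0 with a pseudocount of 5 FPKM and 2 with a pseudocount of 0.1 FPKM or none, where Nqo1 passed as well. Nfe2l2, which encodes the antioxidant regulator NRF2, had 18.9 and 24.2 FPKM with separate intervals. Nqo1, a quinone reductase driven by both AhR and NRF2, had 1.72 (0.984 to 2.46) and 2.77 (1.89 to 3.65) with overlapping ones. At the lower end, Xdh, xanthine dehydrogenase, had 12.5 and 10.1 FPKM with separate intervals, and Notum, a secreted Wnt inhibitor, 29.9 and 24.5 with overlapping ones. Aldh3a1, Ugt1a6a and Ugt1a6b were listed at 0 in both libraries.

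Genes of the cytosolic AhR complex differed little. Of 5 listed, 4 passed the filter and 0 were 1.5-fold higher or lower, beside 3.60% and 5.33% of all genes. Separate intervals were found for 0, and the median was -0.02. Hsp90ab1, a subunit of the HSP90 chaperone, had 503 FPKM in Control and 479 in NP, and Hsp90aa1 53.5 and 48.7. Src, a kinase found with the complex, had 0.910 and 1.14. The 12 coregulators all passed the filter, with 0 past 1.5-fold, beside the same 3.60% and 5.33% of all genes. Their median was -0.09, which turned to 0.02 among those with a mean of 5 FPKM or more. Calcoco1, a coactivator known to bind AhR and ARNT, had 18.0 FPKM in Control and 13.2 in NP, and Sp1, a factor that acts beside AhR at GC boxes, 7.39 and 5.93, both with the NP interval wholly below. Ncor1, a corepressor, had 21.4 and 25.6 with the NP interval wholly above, and Ncoa2 5.21 and 5.87 with overlapping ones.

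Among the other bHLH-PAS genes, 4 of 10 passed the filter and 1, Arntl, was 1.5-fold higher, beside 3.60% of all genes. Arntl, a clock gene related to Arnt in sequence, had 3.81 FPKM for Control (3.03 to 4.59) and 7.21 for NP (6.09 to 8.34), opposite in sign to Arnt. It no longer passed the rule with a pseudocount of 5 FPKM or when only the highest row of each gene was used. The hypoxia factors that share ARNT had overlapping intervals, Hif1a with 9.12 and 7.49 FPKM and Epas1 with 22.9 and 23.0; so had Clock, the partner of the Arntl product, with 7.79 and 7.27. Of 8 hypoxia genes past the filter, 0 were past 1.5-fold, beside 3.60% of all genes higher and 5.33% lower. Their median was -0.06. Pfkfb3, a glycolytic regulator, was the lowest of them, with 2.61 FPKM in Control and 1.55 in NP and separate intervals, and it was past 1.5-fold with a pseudocount of 0.1 FPKM or none. Egln3, a hypoxia-induced prolyl hydroxylase, had 5.13 and 3.74, Ero1l, an ER oxidase, 4.60 and 5.74, and Bnip3, a mitophagy receptor, 73.7 and 74.3, all 3 with overlapping intervals.

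The kynurenine route turns tryptophan into AhR ligands and onward products. Of its 7 enzymes past the filter, 0 were past 1.5-fold, beside 3.60% of all genes higher and 5.33% lower. The NP interval was wholly below for 3, beside 9.58% of all genes. The log2 ratio was below 0 for 6 of the 7, beside 5725 of all 10533 genes, with a median of -0.21. Tdo2, the hepatic enzyme that opens the route, had 957 FPKM for Control (924 to 989) and 824 for NP (796 to 852). Kmo had 46.7 and 36.9 and Aadat, which makes kynurenic acid, 67.9 and 52.3, both with separate intervals. Kynu, with 57.1 and 65.1 FPKM, had the 1 ratio above 0, and Haao, a later enzyme of the route, had 181 and 178; the intervals of both overlapped. Ido1 was listed at 0 in both libraries. So was Il4i1, which was included for making AhR ligands from tryptophan and is not an enzyme of the kynurenine route.

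Electron donors and haem genes, on which CYP1 enzymes depend, went in both directions. Of 7 past the filter, 0 passed 1.5-fold, beside 3.60% of all genes higher and 5.33% lower. The NP interval was wholly above for 3 and wholly below for 1, beside 7.73% and 9.58% of all genes. Por, the P450 reductase, had 194 FPKM for Control (184 to 204) and 147 for NP (139 to 154). Alas1, the first enzyme of haem synthesis, had 97.0 (91.1 to 103) and 143 (136 to 150), a log2 difference of 0.56 that lay just inside the rule and just past it when NP was scaled to the upper quartile of Control. Cyb5r3, which reduces cytochrome b5, had 68.5 and 86.1 with the NP interval wholly above, and Fech, which inserts iron into haem, 50.1 and 46.5 with overlapping ones.

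Genes of the pericentral zone, where Cyp1a2 is known to be high, had a median of -0.07 over 8 members. Of these, 0 were past 1.5-fold, beside 3.60% of all genes higher and 5.33% lower. The NP interval was wholly above for 0 and wholly below for 2, beside 7.73% and 9.58% of all genes. Gulo, of vitamin C synthesis, had 117 FPKM in Control and 90.2 in NP, and Cyp2e1, an ethanol-oxidising P450, 5880 and 4812, with the NP interval wholly below for both. Glul, glutamine synthetase, had 165 and 176 and Slc1a2, a glutamate transporter, 27.0 and 30.3, both with overlapping intervals. The 8 periportal genes had a median of 0.05. Of these, 1 was 1.5-fold lower in NP, beside 5.33% of all genes: Ass1, a urea cycle enzyme, with 67.5 and 41.0 FPKM. Among the 8 periportal genes the NP interval was wholly above for 2 and, with Ass1 included, wholly below for 2. Hsd17b13, a lipid droplet protein, had 357 and 293 with the NP interval wholly below, while Cyp2f2, a P450, had 683 and 795 and Gls2, a glutaminase, 62.6 and 72.7, both wholly above.

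Markers of other liver cells were counted in the same way. Of those past the filter, 0 of 6 stellate, 0 of 5 endothelial, 1 of 3 Kupffer and 0 of 2 cholangiocyte markers were 1.5-fold lower in NP. In these lists 0 were higher. Of all genes past the filter, 5.33% were lower and 3.60% higher. With a pseudocount of 0.1 FPKM the lower counts became 1 stellate, 2 endothelial and 3 Kupffer markers. The lower count over all 10533 genes rose as well, from 561 to 798. The log2 ratio was below 0 for all 6 stellate, all 5 endothelial and all 3 Kupffer markers, beside 5725 of all 10533 genes. Their medians were -0.30, -0.53 and -0.57. The summed level was 160 FPKM in Control and 130 in NP for the stellate list, 88.8 and 65.5 for the endothelial list, and 31.5 and 15.7 for the 5 Kupffer genes found. Stellate ratios ran from -0.55 for Lrat (1.78 and 0.902 FPKM) to -0.15 for Colec11 (12.9 and 11.5). Endothelial ratios ran from -0.58 for Lyve1 (1.57 and 0.711 FPKM) to -0.19 for Stab2 (9.70 and 8.37). The Kupffer marker past the rule was Clec4f, with 18.4 and 7.63 FPKM. Vsig4, with 3.02 and 1.78, differed least of the 3 on the log2(FPKM + 1) scale, though not by plain FPKM ratio. The 2 cholangiocyte markers had opposite signs, Sox9 with 1.75 and 2.09 FPKM and Spp1 with 15.1 and 11.4. Of 5 hepatocyte markers, 0 were past 1.5-fold and 3 had the NP interval wholly above, beside 7.73% of all genes. All 5 had a log2 ratio above 0, beside 4808 of all 10533 genes, with a median of 0.27. Alb and Apoa1, an apolipoprotein (7597 and 9479 FPKM), had separate intervals. Serpina1a, an antitrypsin gene (4564 and 4597), and Cps1, a urea cycle enzyme (343 and 353), had overlapping ones. The part of these differences in the levels of Arnt, Tiparp or the CYP1 genes was not tested.

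**Figure D4:**
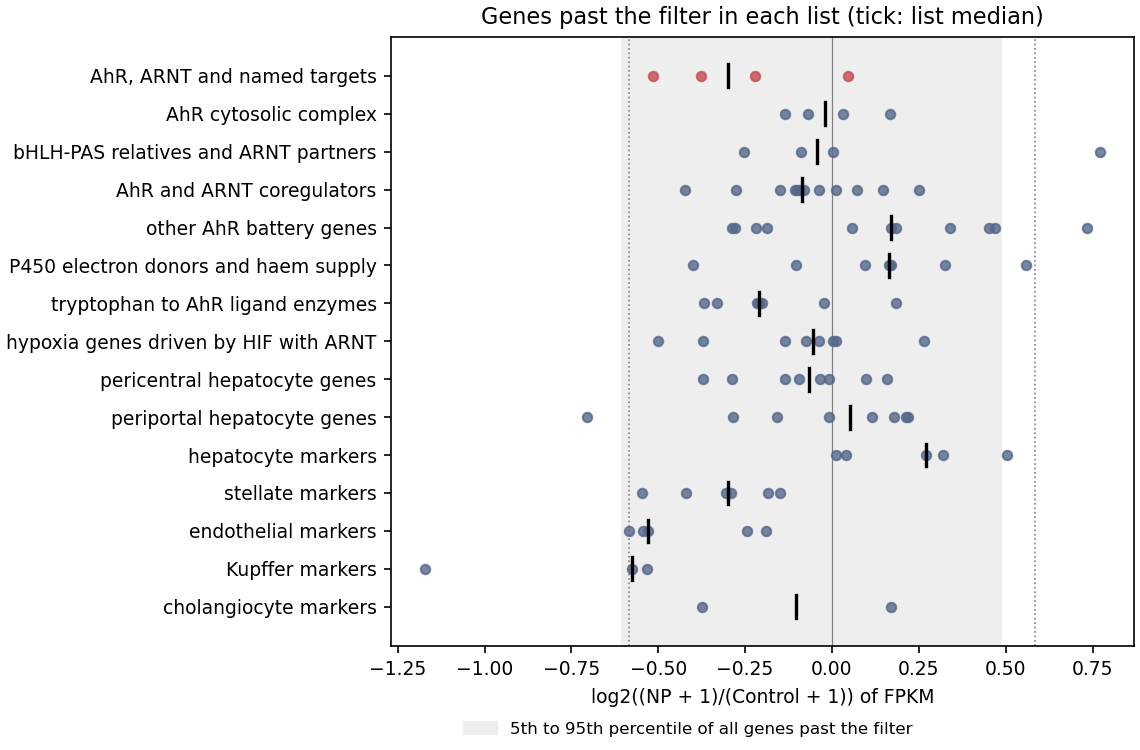
Log2((NP + 1)/(Control + 1)) of FPKM for each gene past the mean filter, by list, with the 4 pathway genes in red; black ticks are list medians, the grey band holds the middle of all 10533 genes from the 5th to the 95th percentile (-0.60 to 0.49) and dotted lines mark 1.5-fold. The 4 red points lie inside the band, and Cd36, Arntl, Ass1 and Clec4f lie beyond the dotted lines.

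The genes with the most similar levels over the 2 libraries, by distance on the log2(FPKM + 1) scale, were Gstk1 (166 and 143 FPKM), Prdx5 (169 and 144) and Gm10073 (173 and 147) for Cyp1a2. For Ahr they were Exoc3, Parp10 and Tank, and for Arnt they were Gm11189, Leprot and Kdr. Mn1, Tmem14a and Zfp846 lay nearest to Tiparp. With only 2 libraries such likeness describes a level and a ratio and nothing more.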

How the data were processed

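Total RNA from frozen liver was sequenced as 1 library per group after TruSeq RNA preparation, per the labels' protocols. The submitters' processing notes name TopHat2 2.1.0, Cufflinks 2.2.1.0 and the mm9 build. The sources used here do not give settings, annotation or strandedness. Each deposited row carries FPKM with an interval, in the isoform tracking format of Cufflinks per the file headers. They also hold read coverage, a signal not scaled to depth, per the file headers. Without strand, reads of a gene and an antisense partner cannot be told apart.

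Row FPKM values were added up by gene identifier, with interval widths combined in quadrature and a pseudocount of 1 FPKM for log2 ratios. Genes entered the background when their mean reached 1 FPKM, every row had OK status, the longest transcript was 300 nt or more and the name was not that of a small RNA. Fragments implied by an interval took each side of it as 2 SD of a Poisson count. Of low transcript rows with 4 to 10 such fragments, 46.8% in Control and 45.2% in NP came within 0.1 of a whole number, so reads were not recovered. Start positions were converted to count from 1. Transcript types came from GENCODE M21 by identifier (25 of 28 transcript rows matched), and promoters from RefSeq (6 of 7 genes), both on GRCm38 and never mixed with the mm9 coordinates. Genes named from each list were the 2 highest and 2 lowest ratios and any past 1.5-fold; Nfe2l2, Tdo2 and Baz2a and the single cell type markers named were chosen after their values were seen. The genes and lists were chosen with earlier results of these data known. The values of 1 gene of the lists are not reported here. Python 3.11.15, pandas 2.3.3, numpy 2.4.6 and matplotlib 3.10.9 were used.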

Additional observations from a re-analysis of the deposited data

How the results depend on the processing

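Weighting rows by length reversed the direction for Ahr, to 0.912 of its Control value, and was not among the 8 alternatives described next. Ahr, Arnt, Tiparp, Cyp1a1, Cyp1a2 and Cyp1b1 kept the sign of their log2 ratio under all 8 alternatives of pseudocount, scaling and row choice. The ranges were 0.03 to 0.08 for Ahr, -0.58 to -0.31 for Arnt, -0.63 to -0.15 for Tiparp, -1.24 to -0.08 for Cyp1a1, -0.22 to -0.18 for Cyp1a2 and -0.17 to 0.00 for Cyp1b1, whose value nearest to 0 was still negative. The count of pathway genes 1.5-fold lower became 1, Tiparp, with a pseudocount of 0.1 FPKM and, in a version added after the data were examined, also 1 with no pseudocount; it was 0 otherwise. Counts over all genes, 379 higher and 561 lower, rose to 534 and 798 with a pseudocount of 0.1 FPKM, to 542 and 728 with the highest row only and to 501 and 766 with no filter. They fell to 166 and 215 with a pseudocount of 5 FPKM, to 218 and 246 when the mean had to reach 5 FPKM, and to 120 and 198 with a 2-fold rule. Separate intervals for Arnt and Cyp1a2 held without span rows and with widths added. Depth limits Cyp1a1, Cyp1b1 and Ahrr most.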
